A study of Mus musculus with 6 samples.

Results

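To describe the NRF2 pathway after axitinib failure, 42 genes were compared between parental and axitinib-resistant 4T1 cells. They are NRF2 targets and genes of glutathione use, chosen by name among the 53465 genes of the count table and grouped here into 8 roles. The choice was made with earlier results of these data known. 4T1 cells come from a mouse mammary carcinoma and spread spontaneously in Balb/c mice. P cells are the parental line. AxR cells grew out of a metastatic lesion of mice given 100 mg/kg/day of axitinib, which blocks the VEGF receptors, and were then kept in 0.5 μM axitinib for over 2 months. By the study's methods P cells were vehicle-treated, while the growth label names 0.5 μM axitinib for all 6 samples. Each line was sequenced as 3 libraries of poly(A) RNA. The comparison therefore sets a single resistant line, from a lung or lymph node lesion, against a single parental line, and drug exposure, passage through mice and outgrowth from a lesion cannot be told apart. Nothing says that the 3 libraries of a line were separate cultures, so p-values measure the spread between these samples only.

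NRF2, encoded by Nfe2l2, is a transcription factor that KEAP1 holds for degradation through a CUL3 ubiquitin ligase. Oxidants and electrophiles modify KEAP1, NRF2 then accumulates, pairs with small MAF proteins and binds antioxidant response elements, where BACH1 competes with it. Its targets make glutathione, reduce thioredoxin, supply NADPH and conjugate or export toxic compounds, and tumor cells with a constantly active pathway are known to tolerate oxidants and drugs. Most control of NRF2 is at the protein level, which was not measured in these data.

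The core letters of the antioxidant response element, TGACNNNGC, are shown where they occurred in the promoters of the genes that the results below turn on. Promoter windows ran from 250 bases before to 50 bases after a transcript start in RefSeq on GRCm38.p6, where a gene can have several starts, and both strands were searched. Each site is given 5′ to 3′ on the strand of the match, with the matched letters in capitals and 10 bases on each side, and the genome strand is named.
Nfe2l2, minus strand, chr2:75704885-75704913: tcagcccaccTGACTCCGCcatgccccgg
Gclm, minus strand, chr3:122245413-122245441: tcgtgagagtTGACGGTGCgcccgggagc
Txnrd1, minus strand, chr10:82859104-82859132: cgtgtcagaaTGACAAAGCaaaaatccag
Srxn1, minus strand, chr2:152105542-152105570: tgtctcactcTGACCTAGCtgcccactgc
Pgd, minus strand, chr4:149166061-149166089: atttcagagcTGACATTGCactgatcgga
G6pdx, plus strand, chrX:74428919-74428947: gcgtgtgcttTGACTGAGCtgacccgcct
Gstm5, plus strand, chr3:107895802-107895830: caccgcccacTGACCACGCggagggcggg
Counted along the gene, the match began 240 bases before the RefSeq start of its window in Nfe2l2, 134 in Gclm, 57 in G6pdx and 42 in Gstm5, and 28 bases after it in Srxn1. Txnrd1 had 3 windows and Pgd 2, and in each gene the match belonged to a start that lies further inside the gene. It began 92 bases before that start in Txnrd1 and 3 bases after it in Pgd, which is 25163 and 692 bases inside the gene from the first GENCODE base. The G6pdx match likewise lay 257 bases inside the GENCODE gene. Windows were found for 35 of the 42 genes, and Gclc, Gsr, Prdx6, Hmox1, Aldh3a1, Gsta4 and Gstt2 were not searched. The letters occurred in 11 of these 35 genes (31.4%) and in 14% of all 27025 genes with a window. Among the 11 were Prdx1, Mgst1, Sod1 and Gsta3 besides the 7 shown. Of the tested genes with a window, 7 of 19 that were higher in AxR cells held a match, 2 of 5 that were lower and 1 of 5 that did not pass the test. A match is a description of these letters and not a site of binding.

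Gclm carried the largest difference within glutathione synthesis, so its 250 bases before the start (chr3:122245307-122245556, plus strand, GRCm38.p6) are shown in full, with the match in capitals as it reads on this strand.
Gclm: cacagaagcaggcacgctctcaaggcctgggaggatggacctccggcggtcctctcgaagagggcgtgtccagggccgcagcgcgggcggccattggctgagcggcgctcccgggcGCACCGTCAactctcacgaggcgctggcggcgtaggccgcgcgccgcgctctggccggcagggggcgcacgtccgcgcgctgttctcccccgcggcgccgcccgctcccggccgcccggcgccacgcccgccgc

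Depth lay between 15495260 and 17294525 estimated counts per library. Levels are given as CPM, counts scaled by edgeR to the normalized library size, and a count of 3, taken as the floor, was worth 0.171 to 0.196 CPM. Levels of different genes are compared only as CPM per kb of merged exon. The libraries of a line were further apart than counting noise allows, and all 6 entered as separate samples. This spread does not show that they were separate cultures. Epithelial markers summed to 1886 to 2105 CPM in P and 3000 to 3176 CPM in AxR libraries, with 5 of 6 higher and Krt19 lower in AxR cells. The sums of fibroblast, leukocyte, endothelial and erythroid markers reached at most 1.02 CPM in any library. Lung epithelial markers summed to 0.577 to 1.15 CPM in P and 4.15 to 4.21 CPM in AxR libraries, of which Foxj1, a factor of ciliated cells, held 0.578 and 3.80 CPM on average. The part of these marker differences in the results was not tested. In bulk RNA, fewer cells with a transcript and less of it per cell cannot be told apart.

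Of the 42 genes, 35 had enough counts to be tested. In AxR cells 22 of them were higher (62.9%), 7 were lower (20%) and 6 did not pass, at a threshold of 0.05 on the p from edgeR's quasi-likelihood test, adjusted over all 13550 genes tested by the Benjamini-Hochberg method. The 2 lines differed broadly, with 32.8% of all tested genes higher and 30.8% lower, 63.5% in either direction. The libraries of the lines did not overlap in 29 of the 35 genes (82.9%), against 68.3% of all tested genes. Of the 29, 22 had AxR libraries higher and 7 lower, where these shares were 35.1% and 33.2% of all tested genes. The members' median on the log2 scale was 0.44, against 0.0058 for all tested genes, and single values ran from -0.80 for Gpx1 to 3.87 for Mgst2. With a log2 fold change of at least 1 also required, 11 genes were higher, against 7.99% of all tested genes. None was lower by as much, where 4.72% of all tested genes were. That count of 0 was the same at an unadjusted p under 0.05, with DESeq2 and with limma-voom. Because the members were chosen with earlier results of these data known, these shares describe the list and are not a test of the pathway.

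The members with large differences were mostly genes of low level. Of the 10 tested members with a mean under 10 CPM, 8 were higher by a log2 fold change of at least 1, against 16.6% of all genes in that range, a division made after the values were seen. At 10 CPM or more it was 3 of 25 (12%), against 4.01% of all genes in that range. Taken line by line, Aldh3a1, Gstm1, Gstt1 and Mgst2 passed the filter on low counts, about 10 counts in 3 libraries, only in AxR cells. Mgst2 (3, 7 and 6 counts in P libraries) and Gstt1 (5, 14 and 4) could not have been tested without higher counts in AxR libraries. Aldh3a1 (10, 12 and 8 counts) and Gstm1 (12, 17 and 7) were near or above 10 counts in P libraries too. For Aldh3a1 and Gstm1 a difference was therefore not strictly required. Among the 31 members that passed in both lines, 18 were higher and 7 lower, and the median was 0.31 on the log2 scale. Of these 31, 7 were higher by a log2 fold change of at least 1 (22.6%). Over all 12277 genes that passed in both lines, 32.8% were higher and 31.7% lower, and 5.60% were higher by at least 1 on the log2 scale.

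**Figure D1:**
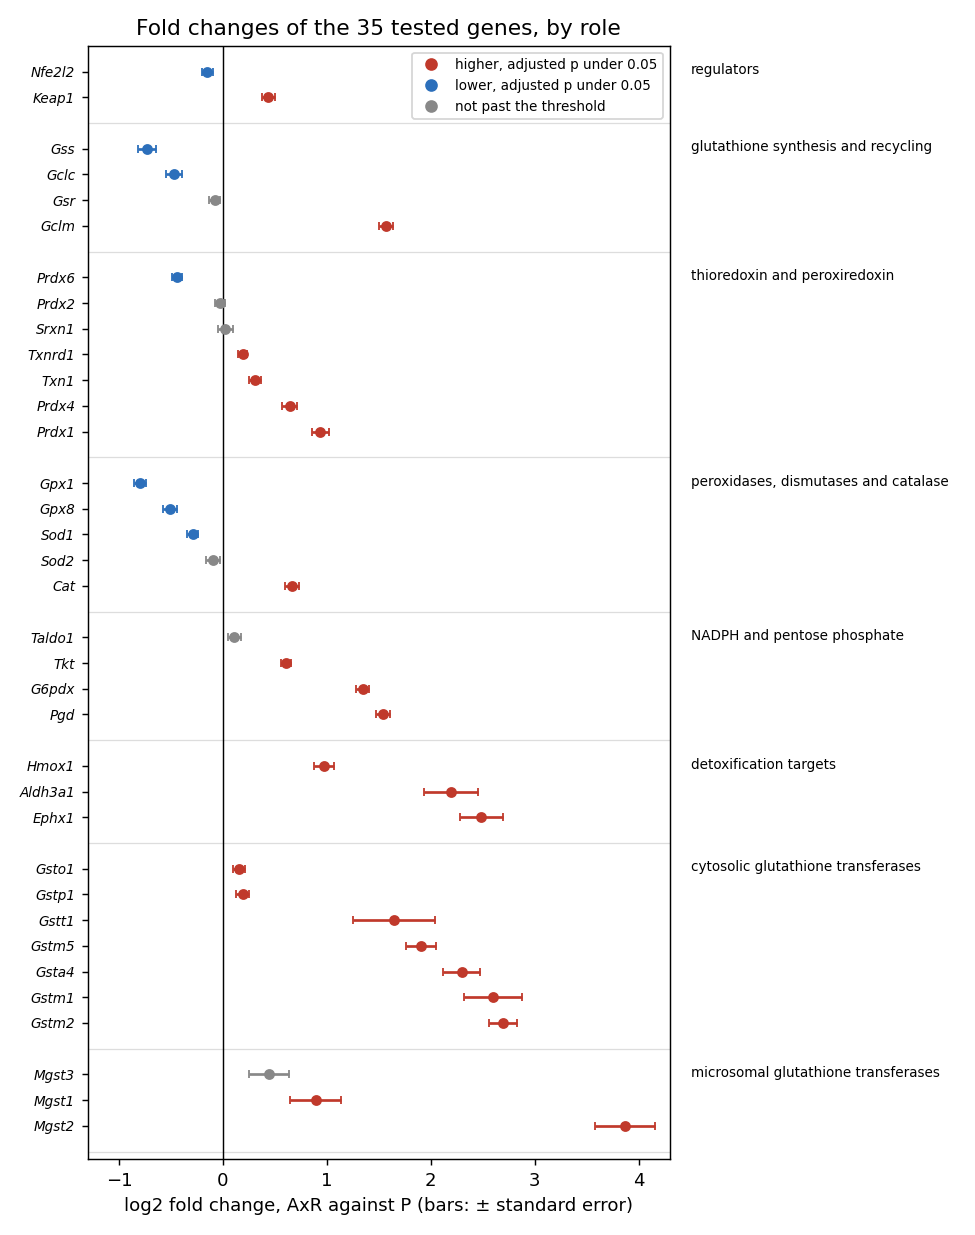
Log2 fold change of each of the 35 tested genes, AxR against P (x axis), with bars of ± 1 standard error, grouped by role. Red points are higher, blue points lower and grey points not past an adjusted p of 0.05. Glutathione transferases and detoxification enzymes reach the highest values, while the role of peroxidases, dismutases and catalase lies mostly below 0.

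The 2 regulators moved in opposite directions, both by less than 1 on the log2 scale. Nfe2l2 itself (ENSMUSG00000015839.6, chr2:75675513-75704641, minus strand) had 103, 98.7 and 109 CPM in P libraries and 88.6, 93.8 and 96.7 CPM in AxR libraries. The lines did not overlap, but by a narrow margin. Its log2 fold change was -0.15 (SE 0.0564, adjusted p = 0.0299, edgeR). The call was lost when P replicate 1 or 3 was left out (adjusted p = 0.0737 and 0.169) and when AxR replicate 1 or 2 was (adjusted p = 0.117 and 0.0717). Keap1, the inhibitor of NRF2 (ENSMUSG00000003308.15, chr9:21229730-21239361, minus strand), had 48.3, 48.8 and 44.1 CPM in P and 64.1, 66.2 and 61.2 CPM in AxR libraries. Every AxR library was above every P library, and the log2 fold change was 0.44 (SE 0.0624, adjusted p = 1.94e-05, edgeR). Per length, Keap1 stood at 0.370 ± 0.0374 of Nfe2l2 in P cells and 0.556 ± 0.0388 in AxR cells (SD, n = 3). An exact two-sided permutation test of this ratio gave p = 0.1, the smallest that 3 against 3 libraries can give.

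In glutathione synthesis, the 2 subunits of glutamate-cysteine ligase, the rate-limiting enzyme, went opposite ways. Gclm, the modifier subunit (ENSMUSG00000028124.15, chr3:122245557-122270732, plus strand), had 42.5, 47.6 and 44.3 CPM in P and 143, 129 and 128 CPM in AxR libraries. All AxR libraries lay far above all P libraries, a 2.97-fold difference (log2 fold change 1.57, SE 0.0635, adjusted p = 2.33e-11 by edgeR's quasi-likelihood test). Gclc, the catalytic subunit (ENSMUSG00000032350.9, chr9:77754535-77794485, plus strand), had 40.8, 35.0 and 36.8 CPM in P and 28.1, 26.8 and 26.3 CPM in AxR libraries. Here every AxR library was lower, with a log2 fold change of -0.47 (SE 0.0752, adjusted p = 5.95e-05, edgeR). Per length, Gclm stood at 0.625, 0.815 and 0.721 of Gclc in the P libraries and at 3.04, 2.88 and 2.90 in the AxR libraries. The ratio of the subunit transcripts was thus higher in every AxR library (exact two-sided permutation p = 0.1). Which subunit stood higher in P cells depends on the merged exon lengths, 6291 bases for Gclm and 3766 for Gclc. In CPM, Gclm was above Gclc in every P library. Gss, the synthetase that completes glutathione, was also lower, at 27.0 ± 1.51 CPM in P and 16.2 ± 1.81 CPM in AxR cells (SD, n = 3; log2 fold change -0.73, adjusted p = 3.67e-06, edgeR). Gsr, the reductase that recycles oxidized glutathione, had 96.5 ± 2.67 and 91.3 ± 4.07 CPM (log2 fold change -0.080, adjusted p = 0.209).

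The thioredoxin and peroxiredoxin genes were the most abundant role per length, summing to 380 ± 4.61 CPM per kb in P and 470 ± 33.8 CPM per kb in AxR cells (SD, n = 3). Of 7 genes, 4 were higher (57.1%) and 1 lower (14.3%), against 32.8% and 30.8% of all tested genes. Prdx1, a cytosolic peroxiredoxin, had 180, 196 and 192 CPM in P and 399, 374 and 313 CPM in AxR libraries, with all AxR libraries above and AxR replicate 3 the least so. Its log2 fold change was 0.94 (SE 0.0781, adjusted p = 6.64e-07, edgeR). Prdx4, the peroxiredoxin of the endoplasmic reticulum, was higher by 0.64 (adjusted p = 2.20e-06) and Txn1, thioredoxin itself, by 0.31 (adjusted p = 0.000206) on the log2 scale. Txn1 had the highest level per length of all the members, rank 279 of 13536 tested genes in P and 231 in AxR cells. Txnrd1, the cytosolic thioredoxin reductase (chr10:82833951-82897712, plus strand), had 223, 225 and 223 CPM in P and 265, 248 and 251 CPM in AxR libraries. The separation was complete but small (log2 fold change 0.19, SE 0.0466, adjusted p = 0.00244, edgeR). Srxn1, sulfiredoxin, which restores overoxidized peroxiredoxins (chr2:152105516-152111376, plus strand), had 39.0, 42.4 and 36.7 CPM in P and 42.6, 38.1 and 39.4 CPM in AxR libraries. These overlapped (log2 fold change 0.023, SE 0.0729, adjusted p = 0.802). Prdx2 also did not pass (-0.030, adjusted p = 0.622), and Prdx6, which reduces lipid peroxides, was lower by edgeR's test (log2 fold change -0.44, adjusted p = 1.32e-06).

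Peroxidases, dismutases and catalase formed the only role whose summed level was lower in AxR cells, at 220 ± 6.37 CPM per kb in P and 161 ± 4.32 CPM per kb in AxR cells (SD, n = 3). Gpx1 and Gpx8 held 76.8% of this sum in P and 66.4% in AxR cells. Of 5 tested genes, 3 were lower (60%) and 1 higher (20%), against 30.8% and 32.8% of all tested genes. Gpx1, the main cytosolic glutathione peroxidase, had 132, 141 and 129 CPM in P and 71.1, 78.1 and 81.9 CPM in AxR libraries. No AxR library reached any P library, and the log2 fold change of -0.80 (SE 0.0613, adjusted p = 2.74e-08, edgeR) was the lowest of the tested members. Gpx8 of the endoplasmic reticulum and Sod1, the cytosolic superoxide dismutase, had log2 fold changes of -0.51 and -0.29 (adjusted p = 1.10e-05 and 0.000172). Sod2, the mitochondrial dismutase, had -0.094 and did not pass (adjusted p = 0.250). Cat, catalase, was higher, at 40.4 ± 0.359 CPM in P and 64.0 ± 5.71 CPM in AxR cells (log2 fold change 0.66, adjusted p = 8.22e-07). Gpx2 reached at most 1 count and Gpx3 at most 8 in any library, and neither was tested. Gpx4, a glutathione peroxidase outside the members, was higher, at 85.9 CPM per kb in P and 115 CPM per kb in AxR cells (log2 fold change 0.43, adjusted p = 7.58e-06, edgeR).

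Of the 4 genes of the pentose phosphate pathway, which supplies NADPH, 3 were higher (75%) and 1 did not pass. Of all tested genes 32.8% were higher. The 2 that form NADPH, G6pdx and Pgd, summed to 17.6 ± 0.431 CPM per kb in P and 46.7 ± 3.35 CPM per kb in AxR cells (SD, n = 3). G6pdx, which starts the pentose phosphate pathway (ENSMUSG00000031400.10, chrX:74409483-74429194, minus strand), had 37.0, 38.2 and 39.3 CPM in P and 103, 98.3 and 90.2 CPM in AxR libraries, a 2.54-fold difference. Pgd, the next NADPH-forming enzyme of the pathway (ENSMUSG00000028961.15, chr4:149149991-149166771, minus strand), had 33.6, 32.8 and 34.2 CPM in P and 105, 98.5 and 88.8 CPM in AxR libraries, a 2.90-fold difference. In both genes the lines were far apart next to their spread, with log2 fold changes of 1.35 (SE 0.0628, adjusted p = 1.08e-10) and 1.54 (SE 0.0675, adjusted p = 5.77e-11) by edgeR's test. Of the 2 non-oxidative enzymes, which form no NADPH themselves, Tkt was higher by 0.61 (adjusted p = 5.65e-08). Taldo1 had 59.1 ± 2.74 and 63.7 ± 3.16 CPM (log2 fold change 0.11, adjusted p = 0.129).

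Among the detoxification targets, Nqo1, the quinone reductase often used to read out NRF2, was near the floor in both lines. Its counts were 6, 4 and 4 in P libraries and 2, 1 and 2 in AxR libraries, which is 0.365, 0.231 and 0.261 CPM against 0.127, 0.0638 and 0.114 CPM. All AxR libraries were under the floor of 3 counts, and Nqo1 was left out by the filter. The ratio of AxR to P over the summed counts was 0.358, with an exact 95% interval from 0.101 to 1.05 that covers counting error only. A difference was thus not detectable at this depth, and without the filter edgeR gave an adjusted p of 0.204. Hmox1, heme oxygenase 1 (chr8:75093621-75100589, plus strand), had 20.3, 21.4 and 21.8 CPM in P and 37.6, 38.5 and 48.0 CPM in AxR libraries. It was 1.96-fold higher with no overlap (log2 fold change 0.97, SE 0.0932, adjusted p = 3.81e-07, edgeR). Ephx1, the microsomal epoxide hydrolase (chr1:180976210-181020904, minus strand), had 0.973, 0.808 and 0.978 CPM in P and 5.72, 5.23 and 4.61 CPM in AxR libraries, a 5.61-fold difference (adjusted p = 6.66e-08). Aldh3a1, an aldehyde dehydrogenase (chr11:61207537-61218421, plus strand), had 0.608, 0.693 and 0.522 CPM in P and 3.05, 2.81 and 2.62 CPM in AxR libraries, a 4.58-fold difference (adjusted p = 3.29e-06). Both came from low levels in P cells, and Aldh3a1 passed the filter on low counts only in AxR cells. Of the role's summed level of 13.0 ± 0.373 CPM per kb in P and 27.8 ± 2.94 CPM per kb in AxR cells (SD, n = 3), Hmox1 held 12.1 and 23.6 CPM per kb.

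All 7 tested of the 11 cytosolic glutathione transferases, which couple glutathione to electrophiles, were higher in AxR cells by edgeR's test. Of all tested genes 32.8% were higher. Taken line by line, Gstm1 and Gstt1 passed the filter on low counts only in AxR cells, where they were high, so the count of 7 partly rests on the filter. Gstm2 (chr3:107981702-107986453, minus strand) had 2.25, 2.42 and 2.87 CPM in P and 15.3, 17.9 and 15.6 CPM in AxR libraries, a 6.46-fold difference (log2 fold change 2.69, SE 0.134, adjusted p = 2.15e-10). Gstm1 (chr3:108012255-108017973, minus strand) had 0.729, 0.982 and 0.456 CPM against 5.59, 4.40 and 3.47 CPM, a 6.06-fold difference (adjusted p = 1.01e-06). Gstm5 (chr3:107895821-107898686, plus strand) had 2.67, 2.42 and 2.61 CPM against 10.4, 8.67 and 9.79 CPM, a 3.74-fold difference (adjusted p = 2.02e-08). These 3 genes of the mu class lie in a cluster of 7 genes over 149 kb of chromosome 3, of which the other 4, Gstm3, Gstm4, Gstm6 and Gstm7, never exceeded 2 counts. Gsta4 of the alpha class (chr9:78182774-78209349, plus strand), known for conjugating lipid aldehydes, had 1.64, 1.15 and 1.43 CPM in P and 7.05, 6.50 and 7.28 CPM in AxR libraries. The groups were well apart, a 4.92-fold difference (log2 fold change 2.30, SE 0.177, adjusted p = 2.88e-08). Gstt1 of the theta class (chr10:75783813-75798584, minus strand) had 0.304, 0.808 and 0.261 CPM in P and 1.84, 1.28 and 1.31 CPM in AxR libraries, a 3.12-fold difference (log2 fold change 1.64, adjusted p = 0.00195). P replicate 2 stood above the other P libraries, and without it the log2 fold change was 2.35.

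The abundant transferases moved least. Gsto1 of the omega class and Gstp1 of the pi class held 94.5% of the summed level of the cytosolic transferases in P and 79.5% in AxR cells, of totals of 100.3 ± 4.26 and 134 ± 5.97 CPM per kb (SD, n = 3). Gsto1 had 94.9 to 103 CPM in P and 105 to 112 CPM in AxR libraries (log2 fold change 0.15, adjusted p = 0.0207, edgeR). Its call was lost with scaling by library size only (adjusted p = 0.0603), with DESeq2 (0.0505), and on leaving out P replicate 1 (0.0618), P replicate 3 (0.0929) or AxR replicate 2 (0.0822). Gstp1 had 67.7 to 75.9 CPM in P and 76.3 to 87.3 CPM in AxR libraries (log2 fold change 0.19, adjusted p = 0.0171, edgeR). That call was lost on leaving out P replicate 1 (adjusted p = 0.0829), P replicate 3 (0.0501) or AxR replicate 2 (0.0975). Gstp1 shared 33.7% of the 50-base words of its transcripts with other genes, chiefly Gstp2, and Gstm1 shared 18.9%, so the division of their reads is uncertain. The share was 21% for Sod2, 8.29% for Prdx1 and at most 6.67% for the other tested members.

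Untested transferases were at or near the floor. Gsta2 reached 1 count, Gsta3 3 counts and Gstt2 8 counts at most. Gsta1 had at most 1 count in a P library and 6, 17 and 11 counts in AxR libraries, a ratio over the summed counts of 34.1 with an exact 95% interval from 5.72 to 1385. Without the filter its adjusted p was 7.17e-07 by edgeR's test. Gsta1 shared 90.5% of its 50-base words with other genes, chiefly Gm3776, so these reads cannot be assigned to it with certainty.

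**Figure D2:**
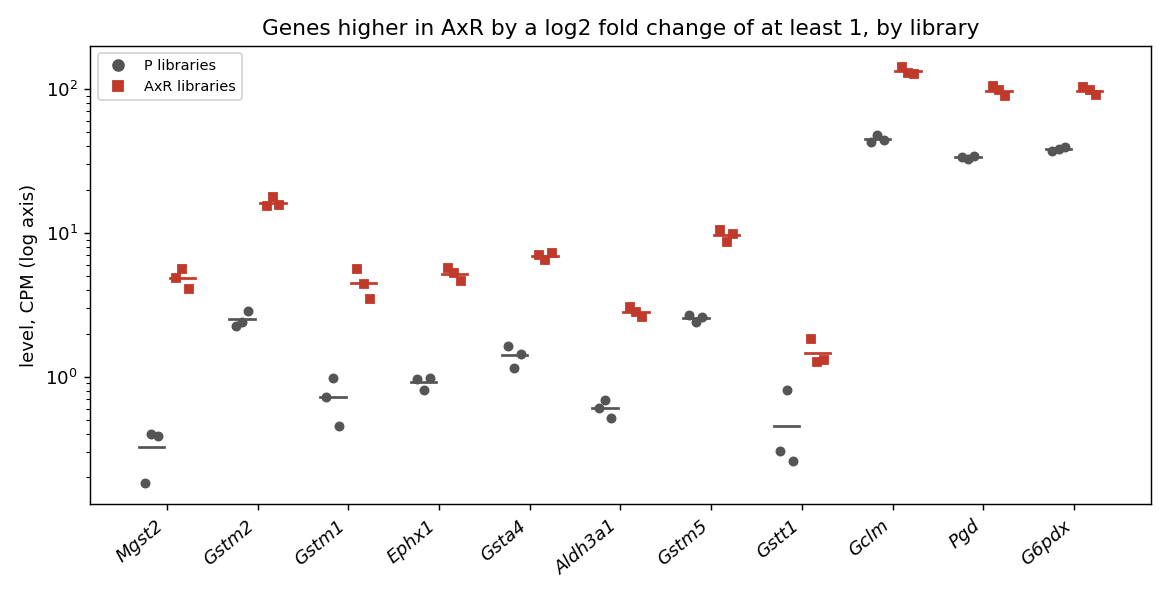
Level in CPM (y axis, log scale) in each P library (grey circles) and AxR library (red squares) of the 11 genes higher by a log2 fold change of at least 1, with a line at each mean. In each of the 11 every AxR library lies above every P library, and 8 of them have a mean under 10 CPM over all 6 libraries. Aldh3a1, Gstm1, Gstt1 and Mgst2 passed the filter on low counts only in AxR cells.

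Microsomal glutathione transferases held the gene with the highest fold change. Mgst2 (ENSMUSG00000074604.9, chr3:51660360-51682677, plus strand) had 3, 7 and 6 counts in P and 77, 88 and 72 counts in AxR libraries, or 0.182, 0.404 and 0.391 CPM against 4.89, 5.61 and 4.10 CPM. It was 14.6-fold higher in AxR cells (log2 fold change 3.87, SE 0.288, adjusted p = 1.99e-08, edgeR), and rose from rank 13321 to rank 10912 of 13536 by level per length. Mgst2 passed the filter on low counts only through the AxR libraries, where it was high, so it could be tested only because it was higher there. Mgst1 had 1.95, 2.08 and 2.93 CPM in P and 5.21, 4.91 and 2.84 CPM in AxR libraries. AxR replicate 3 lay within the P libraries, and the log2 fold change of 0.89 passed at an adjusted p of 0.00509 by edgeR's test. Mgst3 had 2.54 to 3.16 CPM in P and 3.41 to 4.72 CPM in AxR libraries (log2 fold change 0.44, adjusted p = 0.0546), and passed without AxR replicate 1 (adjusted p = 0.0465) or AxR replicate 3 (adjusted p = 0.0375).

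Levels per length spread the tested members over most of the expressed range. In P cells 22 of the 35 lay above the median of all tested genes, 6.32 CPM per kb, and 6 were among the top 1000 genes in both lines. The members lower in AxR cells started between 4.57 CPM per kb (Gss) and 93.0 CPM per kb (Gpx1) in P cells. Of the 11 higher by at least 1 on the log2 scale, Gclm, Pgd and G6pdx started at 7.12, 5.20 and 12.4 CPM per kb, and the other 8 at or under 2.01 CPM per kb.

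**Figure D3:**
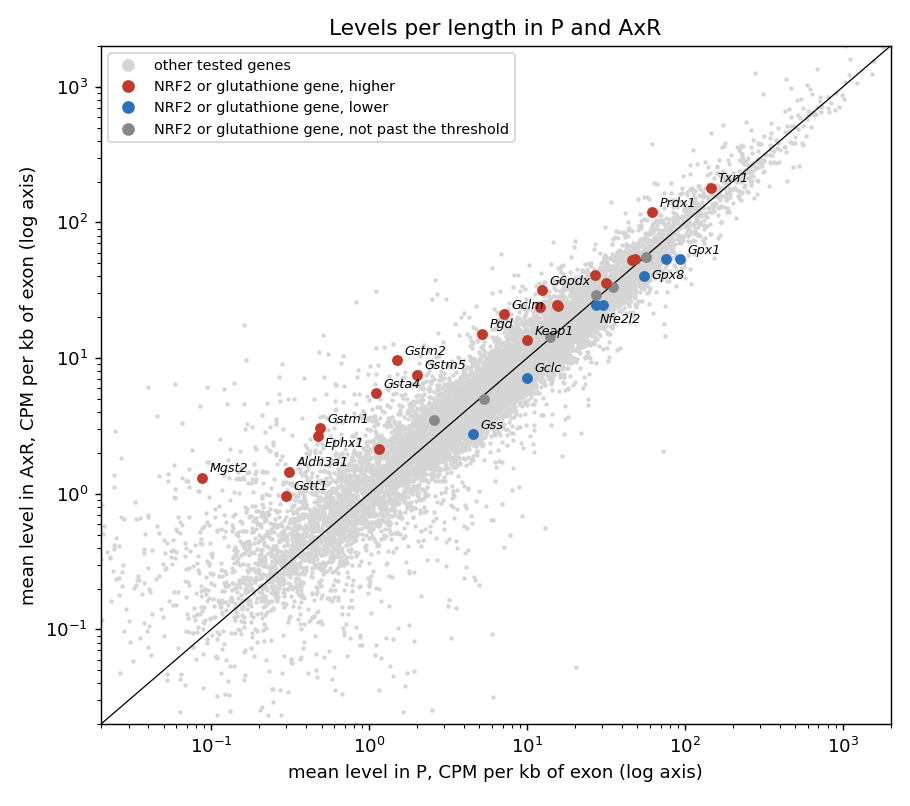
Mean level per length in P cells (x axis) and AxR cells (y axis), both in CPM per kb of exon on log scales, for the tested members (colored) and all other tested genes (light grey), with the line of equal levels. Members above the line at the left are mostly transferases and detoxification enzymes of low level, and Txn1 stands at the upper right at 145 and 180 CPM per kb.

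Chromosomes differed in their median log2 fold change between these lines, from -0.32 over the tested genes of chromosome 16 to 0.32 over those of chromosome 3 among the chromosomes that carry members. Most large differences exceeded these medians. Mgst2, Gstm2, Gstm1, Gstm5 and Gclm on chromosome 3 stood 3.54, 2.37, 2.28, 1.58 and 1.25 above its median. After subtraction of the median, Txnrd1 on chromosome 10 (median 0.25) was left at -0.062 and Sod1 on chromosome 16 at 0.032, so neither kept its direction. Of the genes that did not pass, Gsr, Prdx2 and Taldo1 also changed sign, to 0.097, 0.15 and -0.069. Nfe2l2 was left at -0.057. Gclc, Gpx8 and Prdx6 were left at -0.24, -0.23 and -0.15, and Keap1 at 0.67. The part of these chromosome-wide differences in the members' values was not tested.

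The other genes of the pathway, 80 in 5 lists also chosen with earlier results of these data known, were read from the same fit. Of 65 tested, 34 were higher and 17 lower, with 6 higher and 3 lower by at least 1 on the log2 scale, where 7.99% and 4.72% of all tested genes were. Their median log2 fold change was 0.25. That is 52.3% higher and 26.2% lower, against 32.8% and 30.8% of all tested genes. NRF2 partners, competitors and turnover genes, 13 in all, had 4 higher (30.8%) and 5 lower (38.5%), next to the same 2 shares of all tested genes. Bach1, the repressor that competes with NRF2, had 62.5, 60.8 and 63.4 CPM in P and 38.9, 41.8 and 38.2 CPM in AxR libraries (log2 fold change -0.65, adjusted p = 2.38e-07, edgeR). Of the small MAF partners, Maff had 45.7, 52.0 and 50.1 CPM against 25.5, 22.6 and 26.2 CPM (-0.99, adjusted p = 3.04e-08). Mafk was lower too (-0.44, adjusted p = 9.43e-05), and Mafg overlapped (-0.072, adjusted p = 0.283). Cul3, the ligase scaffold that works with KEAP1, was lower (log2 fold change -0.52, adjusted p = 1.19e-07), and Sqstm1, which binds KEAP1, was higher (0.65, adjusted p = 1.10e-07). After subtraction of the chromosome's median, Bach1 was left at -0.33, Cul3 at -0.23, Mafk at -0.28, Maff at -1.11 and Sqstm1 at 0.64. The part of the chromosome-wide differences in these values was not tested.

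**Figure D4:**
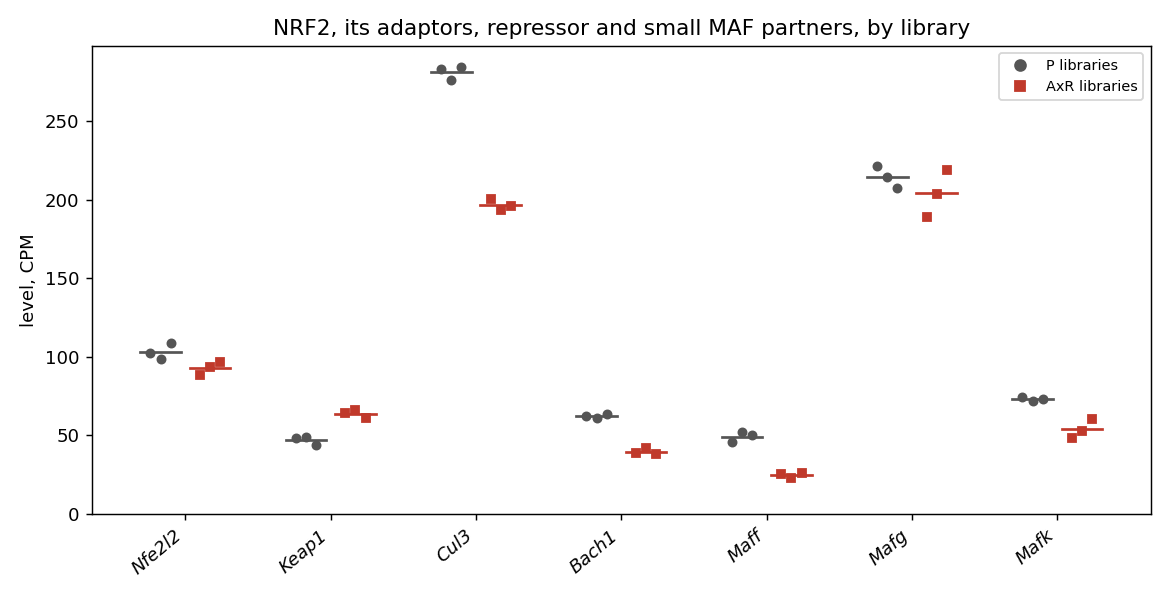
Level in CPM (y axis) of NRF2 (Nfe2l2), its inhibitor Keap1, the ligase scaffold Cul3, the competing repressor Bach1 and the small MAF genes. Grey circles are P libraries and red squares AxR libraries, with a line at each mean. Keap1 lies higher in all AxR libraries, Cul3, Bach1, Maff and Mafk lie lower, and the libraries of Mafg overlap.

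Other NRF2 targets split, with 10 of 20 tested higher (50%) and 7 lower (35%), against 32.8% and 30.8% of all tested genes. Ftl1, the ferritin light chain, whose reads may be shared with related gene copies, had 580 ± 14.4 CPM in P and 1533 ± 47.7 CPM in AxR cells (SD, n = 3; log2 fold change 1.40, adjusted p = 3.03e-12, edgeR), and Blvrb, a biliverdin reductase, was higher by 1.01 (adjusted p = 7.08e-05). Cbr1, a carbonyl reductase, went the other way with 126, 137 and 135 counts in P and 4, 5 and 10 counts in AxR libraries. No member or listed gene had a lower value than its log2 fold change of -4.36 (SE 0.235, adjusted p = 5.29e-10, edgeR). Cbr1 passed the filter on low counts only through the P libraries, where it was high. Tgfa, which encodes an EGF receptor ligand, was lower by edgeR's test as well (-1.02, adjusted p = 7.11e-10). In cystine uptake and glutathione turnover 8 of 11 tested genes were higher (72.7%) and 1 lower (9.09%). Slc7a11, the cystine importer, had 110, 112 and 121 CPM in P and 150.0, 161 and 182 CPM in AxR libraries (log2 fold change 0.52, adjusted p = 9.42e-06).

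Among the other thioredoxin, glutaredoxin and peroxidase genes, 9 of 17 tested were higher (52.9%) and 3 lower (17.6%). Of all tested genes 32.8% were higher and 30.8% lower. Sesn1, a sestrin, and Msra, which repairs oxidized methionine, were higher by 1.18 and 1.07 on the log2 scale (adjusted p = 2.49e-07 and 2.11e-05, edgeR). Sod3, the extracellular dismutase, had 2, 1 and 3 counts in P and 13 in every AxR library. It passed the filter on low counts only through the AxR libraries, where it was high. The ratio over the summed counts was 6.51, with an exact 95% interval from 2.74 to 18.8 (adjusted p = 0.000267, edgeR). Of 14 other glutathione transferases 9 were untested, 4 were higher and 1 was lower, which is 80% and 20% of the 5 tested. Gsto2, which neighbours Gsto1 on chromosome 19, was the lower one (1.33 ± 0.111 CPM in P and 0.458 ± 0.209 CPM in AxR cells, log2 fold change -1.54, adjusted p = 0.00172). With 22, 21 and 22 counts in P and 10, 8 and 4 in AxR libraries, Gsto2 passed the filter only through the P libraries, where it was high. Ptges, a prostaglandin synthase of the microsomal family, was higher (1.13, adjusted p = 0.00216).

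**Figure D5:**
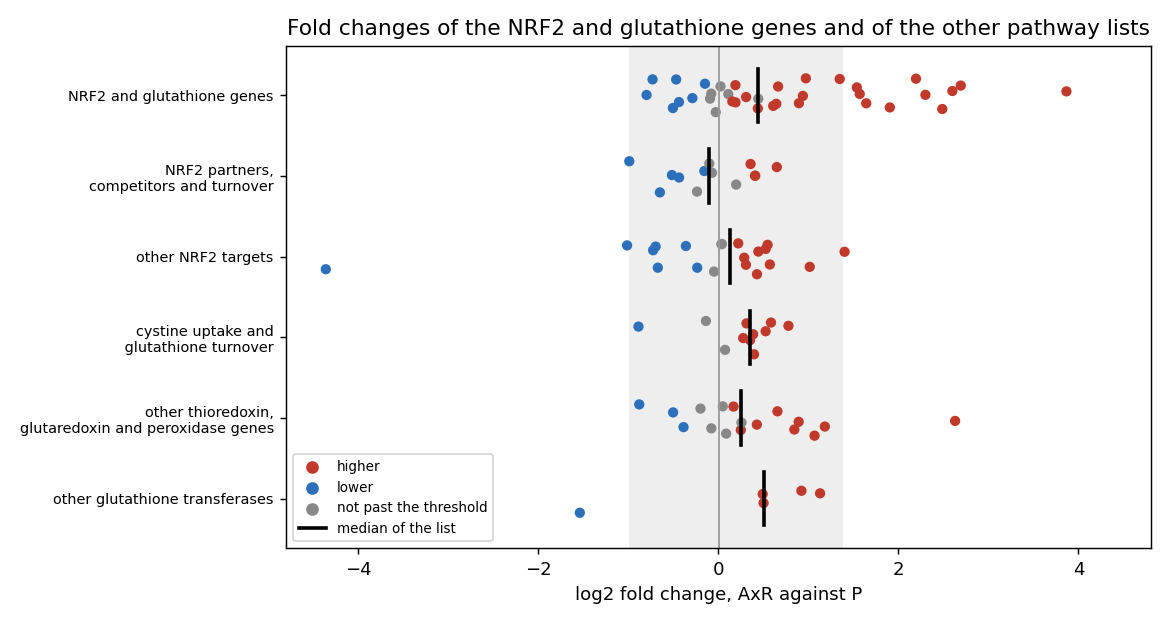
Log2 fold change, AxR against P, of each tested gene (points) of the 42 members and of the 5 other pathway lists, with the median of each list as a bar and a grey band from the 5th to the 95th percentile of all tested genes (-0.99 to 1.37). Red, blue and grey points are higher, lower and not past an adjusted p of 0.05, Sod3 is drawn at its fitted value, Cbr1 lies far below the band, and Mgst2 at 3.87 is the member furthest above it.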

How the data were processed

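Estimated counts per gene were deposited by the authors for 6 libraries of poly(A) RNA from 4T1 cells, 3 P and 3 AxR, as the sample titles give them. Per the labels and the study's methods, the authors checked reads with FastQC 0.11.5, aligned them with STAR 2.6.0a to GRCm38 and GENCODE M16, and estimated counts with RSEM 1.3.1, which divides reads that match several genes, so near-identical genes can share reads.

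Here the estimated counts were rounded to whole numbers. R 4.3.3 and edgeR 4.0.16 were used for the filter (filterByExpr), the upper quartile factors and the quasi-likelihood test, which compared the lines with no other covariate and robust dispersions. The Benjamini-Hochberg adjustment ran over 13550 genes, and 0.05 was the threshold. Scripts were tested on simulated data. Positions and exon lengths came from GENCODE M21, in which 53360 of 53465 identifiers were found, and promoter sequences from RefSeq. Ratios of summed counts were scaled by the normalized library sizes and given exact binomial intervals (95%). Sharing of transcript sequence was counted over 50-base words.

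The members, roles and gene lists were chosen with earlier results of these data known. All 42 members are accounted for, with values in every library for the regulators, for Nqo1, Hmox1, Gclc, Gclm, Txnrd1 and Srxn1, and for every member past the threshold whose log2 fold change was 1 or more in size. Library values of Prdx1, Gpx1 and Mgst1 were added after they were seen. Of the other pathway lists, genes past the threshold with that fold change are named, and Slc7a11, Bach1 and the small MAF genes. Cul3, Sqstm1 and Gpx4 were named after their values were seen. Alternatives were TMM, library size only, DESeq2 1.42.0, limma-voom (limma 3.58.1), no filter on low counts, at least 10 counts in every library, the replicate number as a block, each library left out, a log2 fold change of at least 1, and subtraction of the chromosome's median. Figures were drawn with matplotlib 3.10.9.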

Additional observations from a re-analysis of the deposited data

How the results depend on the processing

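The genes tested kept their counts within 1.5 times under every change of scaling, tool or filter and with each library left out. Members numbered 18 to 24 higher and 6 to 7 lower (20 to 24 and 6 to 7 with a library left out), other pathway genes 31 to 34 and 14 to 18, and all genes 3962 to 4761 and 3782 to 4337. The median log2 fold change of the members lay between 0.31 and 0.56. A log2 fold change of 1 or more in size, required as well, left 11 members higher and 0 lower, 6 and 3 of the other pathway genes, and 1083 and 640 of all genes. Of the members' repeated tests, 435 kept direction and side of the threshold, 12 lost the call (Nfe2l2, Gsto1 and Gstp1), 2 gained it (Mgst3), and 2 changed sign. The latter were both Srxn1, never past the threshold, which ran from -0.021 (without P replicate 3) to 0.082 (without P replicate 2) with a library left out and stood at -0.020 without AxR replicate 1. Subtraction of the chromosome's median turned Txnrd1 to -0.062 and Sod1 to 0.032, and changed the sign of 3 genes that had not passed (Gsr, Prdx2 and Taldo1). Same-numbered libraries of the lines did not deviate together (correlations of -0.0527, -0.0226 and -0.0154), so the numbers were not treated as pairs. With the replicate number as a block, 22 members were higher and 7 lower with a median of 0.44, as were 33 and 16 other pathway genes and 4304 and 4023 of all genes. The median of all genes, 0.0058, was lowest with library size only, at -0.015. The 7 untested members had too few counts for the filter, so their values carry wide counting error.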
